A study of Mus musculus with 57 samples.

Results

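The 20 gastrocnemius libraries of H3K27ac and H3K4me3 were compared between 2 sets of 5 mice. Set A holds mice 1, 3, 4, 6 and 7 and set B mice 2, 5, 8, 9 and 10, numbered as in the library titles. The sets are not groups of the study: they were chosen from these same libraries, because this division of the mice had given the largest gap, in both marks, between the correlation of libraries within a set and between sets on chromosomes 1 to 19. The 20 libraries are part of 57, and the other 10 gastrocnemius libraries (H3K27me3) and 27 cortex libraries (3 marks, 9 of the 10 mice) took no part in the choice. Differences between the sets in the 20 libraries are therefore given as descriptions with no test, and tests were made on the other 37 libraries of the same mice. All mice were of the PSAPP strain, a transgenic model of Alzheimer's disease, aged 13 months, singly housed on a fixed daily ration of a modified AIN-93 diet and killed under isoflurane, so that no wild-type, younger or treated animal is included. In chromatin immunoprecipitation followed by sequencing, DNA bound by an antibody against a mark is enriched and sequenced, and the deposited files hold the enriched intervals (peaks) of each library with the reads in each. By the sexes shown in the study's figures, set A holds 3 males and 2 females and set B 2 males and 3 females. An S number, whose meaning the sources used here do not give, stands in the deposited name of 1 gastrocnemius library of each mark in set A (mouse 6) and 3 in set B (mice 5, 9 and 10).

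H3K4me3 marks the start sites of active genes, and H3K27ac marks active start sites and enhancers. Skeletal muscle consists mainly of multinucleated fibres of fast and slow type, distinguished by the myosin heavy chains they use (Myh7 in slow fibres, Myh2, Myh1 and Myh4 in fast ones). Between the fibres lie nuclei of fibroblasts, which make the collagen matrix, and of endothelial cells, pericytes, satellite cells (the stem cells of muscle), leukocytes, fat cells and the Schwann cells of nerves. In such bulk chromatin, a different share of nuclei of a type and a different signal per nucleus cannot be told apart. All 14 genes of the fast fibre list carried promoter signal past the filter in both marks, while the promoters of Adipoq (adipocytes) and Ptprc (leukocytes) were listed at 0 in all 20 libraries. The adipocyte and leukocyte lists were not silent as a whole, since 9 of 14 and 6 of 19 of their genes passed the filter in H3K27ac. Passing was not particular to fibre genes, as all 12 fibroblast and matrix genes and all 10 housekeeping genes passed in both marks.

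The sequences of a few intervals on which the sets differed are shown first. The promoters are the 250 bases before to 50 bases after a gene's start from RefSeq (GRCm38.p6, the assembly of mm10), and the site sequences are the middle 200 bases of the interval that all 5 libraries of the higher set shared. Capitals mark matches, on either strand, to the E-box CACGTG, the AP-1 motif TGANTCA, the TATA motif TATAAA or the GC box GGGCGG. Abca8a and Gpnmb are shown because their promoters were higher in set B in both marks, and Aqp3 because its promoter was higher in set A in both. Abca8a lies at chr11:110095888-110096187 (minus strand), Gpnmb at chr6:49036268-49036567 (plus strand) and Aqp3 at chr4:41098134-41098433 (minus strand).
Abca8a promoter: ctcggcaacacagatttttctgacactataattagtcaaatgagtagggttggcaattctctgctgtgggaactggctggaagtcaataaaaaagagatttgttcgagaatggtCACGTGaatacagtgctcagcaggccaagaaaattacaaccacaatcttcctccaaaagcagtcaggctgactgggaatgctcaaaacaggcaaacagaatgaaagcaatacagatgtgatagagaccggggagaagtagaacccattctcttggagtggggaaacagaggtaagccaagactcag
Gpnmb promoter: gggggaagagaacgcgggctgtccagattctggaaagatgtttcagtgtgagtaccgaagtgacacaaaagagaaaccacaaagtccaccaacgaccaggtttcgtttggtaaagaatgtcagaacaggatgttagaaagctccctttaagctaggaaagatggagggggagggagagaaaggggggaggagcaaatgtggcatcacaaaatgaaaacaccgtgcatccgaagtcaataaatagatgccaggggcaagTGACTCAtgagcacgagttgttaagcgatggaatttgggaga
Aqp3 promoter: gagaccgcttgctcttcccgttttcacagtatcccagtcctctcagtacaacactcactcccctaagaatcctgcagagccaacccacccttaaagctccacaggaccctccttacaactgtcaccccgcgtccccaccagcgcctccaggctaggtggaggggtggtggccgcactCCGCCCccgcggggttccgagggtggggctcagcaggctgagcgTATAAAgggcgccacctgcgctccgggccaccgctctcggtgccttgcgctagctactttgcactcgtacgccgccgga
The H3K4me3 site inside Eepd1 (chr9:25513201-25513400) is shown because all 5 set A libraries and none of set B had a peak there, and the site at the start of Runx1 (chr16:92824901-92825100) because the reverse held. Both are given on the plus strand.
Eepd1 site: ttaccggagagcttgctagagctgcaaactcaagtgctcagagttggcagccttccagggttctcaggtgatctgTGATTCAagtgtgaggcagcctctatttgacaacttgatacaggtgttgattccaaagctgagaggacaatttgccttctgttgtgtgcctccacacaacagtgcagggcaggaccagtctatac
Runx1 site: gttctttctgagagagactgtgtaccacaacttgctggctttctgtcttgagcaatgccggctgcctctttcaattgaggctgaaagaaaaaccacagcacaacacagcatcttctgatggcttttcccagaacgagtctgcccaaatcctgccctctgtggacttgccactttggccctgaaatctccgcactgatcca
The Abca8a promoter holds 1 E-box, Gpnmb 1 AP-1 match, Aqp3 1 TATA match and 1 GC box, and the Eepd1 site 1 AP-1 match. Of the 24963 autosomal genes, 18222 had a promoter in the RefSeq table, and among those 8.08% hold an E-box, 7.39% an AP-1 match, 13.1% a TATA match and 45.8% a GC box. Of the middle 200 bases of the 24548 consensus H3K4me3 sites (merged peaks present in at least 3 libraries), 5.34% hold an AP-1 match. No match was found in the Runx1 window.

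The first result concerns the correlations that chose the sets. For H3K27ac, the mean Spearman correlation of read signal over 10 kb bins was 0.910 within the sets (0.906 in A, 0.914 in B) and 0.890 between them, a gap of 0.0192. For H3K4me3 it was 0.915 within (0.905 in A, 0.926 in B) and 0.905 between, a gap of 0.0102. The ranges overlapped in both marks, since single pairs ran from 0.886 to 0.928 within and from 0.845 to 0.916 between sets for H3K27ac, and from 0.885 to 0.932 within and from 0.875 to 0.929 between for H3K4me3. The lowest H3K27ac correlations were those of mouse 6, the set A mouse with an S number, with mice 5, 9 and 10 of set B (0.845 to 0.858, mean 0.852, 3 pairs). Among libraries without an S number (4 of set A, 2 of set B), the mean H3K27ac correlation was 0.909 within A, 0.915 for the single B pair and 0.907 between the sets, and the gap was 0.00295. With 50 kb bins the gap over all libraries was 0.00932 for H3K27ac and 0.00674 for H3K4me3. For H3K4me3 the same libraries gave 0.909 within A, 0.932 for the B pair and 0.918 between, and the gap turned to -0.00561. The part of the S number in the separation was not tested, and with 1 and 3 such libraries it cannot be fully told apart from the sets. Pairs of the same sex correlated at a mean of 0.902 for H3K27ac and pairs of different sex at 0.897, and the values for H3K4me3 were 0.912 and 0.908.

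**Figure D1:**
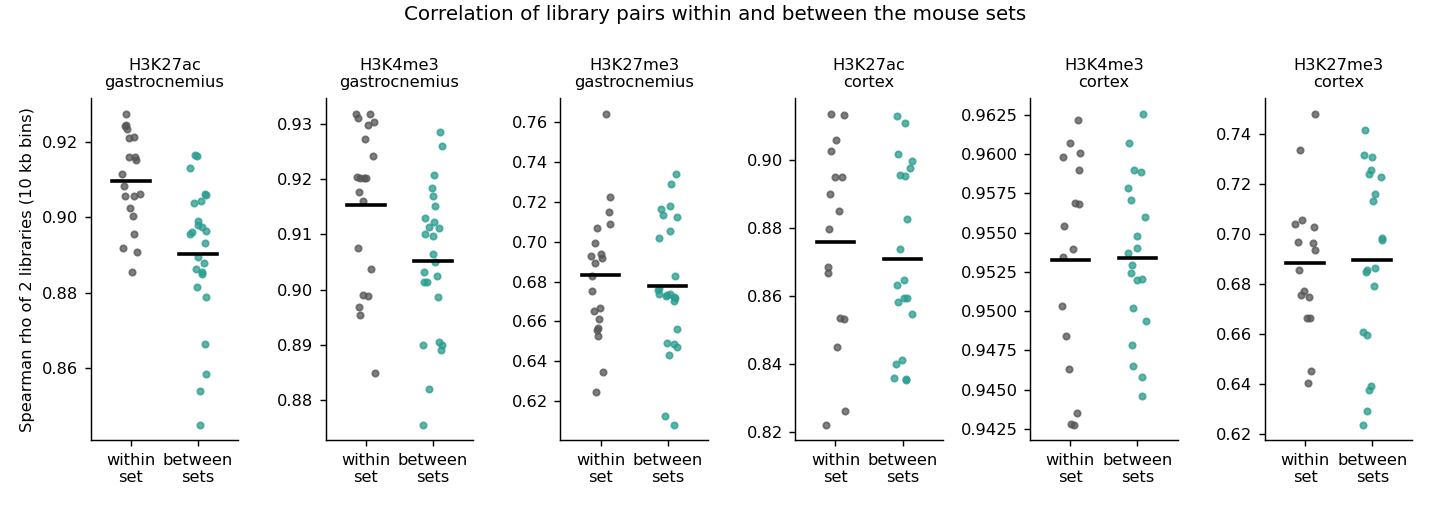
Spearman correlation over 10 kb autosomal bins (vertical axes, no unit, each panel with its own range) between libraries that share mark and tissue, each point 1 pair, grouped into pairs within a set and between the sets, with the mean as a bar. In the 2 gastrocnemius marks that chose the sets the between-set points reach down to 0.845 for H3K27ac and 0.875 for H3K4me3 and overlap with the within-set points, and the gap between the means is 0.0192 and 0.0102, against at most 0.00548 in the other 4 panels.

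In principal components of the sites that all 10 libraries had called, the sets fell on opposite sides of the first H3K4me3 component, which held 39.2% of the variance over 16896 sites. Set A scored at -0.08 or below and set B at 0.06 or above. The first H3K27ac component (31.0% of the variance, 19877 sites) almost did the same, except that mice 1 (0.03) and 3 (0.02) of set A scored above mouse 2 (-0.03) of set B. Its extremes were mouse 6 at -0.30 and mouse 5 at 0.24.

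The libraries differed in the shape of their peaks before any gene was considered. H3K27ac peaks on autosomes numbered 49213, 46028, 50532, 47600 and 51607 in mice 1, 3, 4, 6 and 7 of set A, and 56635, 55952, 54305, 67089 and 54233 in mice 2, 5, 8, 9 and 10 of set B. All set B libraries had more peaks than all set A libraries. The peaks were wider in set A, with median widths of 4.6, 4.8, 4.4, 4.8 and 3.6 kb against 3.2, 4.0, 3.4, 3.0 and 3.8 kb, where mouse 7 lay among set B. For H3K4me3 the order of the counts differed: set A had 23693, 27077, 29155, 25365 and 28376 peaks and set B 23835, 20776, 22516, 22455 and 23549, with mouse 1 the exception to higher counts in A. The share of H3K4me3 reads more than 2.5 kb from any transcription start site (TSS) was 34.1%, 39.0%, 35.8%, 40.0% and 28.9% in set A and 30.0%, 31.9%, 28.1%, 26.6% and 27.4% in set B. Mouse 7 was again the set A library among set B. Reads in peaks ranged from 15.7 to 27.3 M (H3K27ac) and from 9.16 to 14.98 M (H3K4me3), and the sets overlapped in both.

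**Figure D2:**
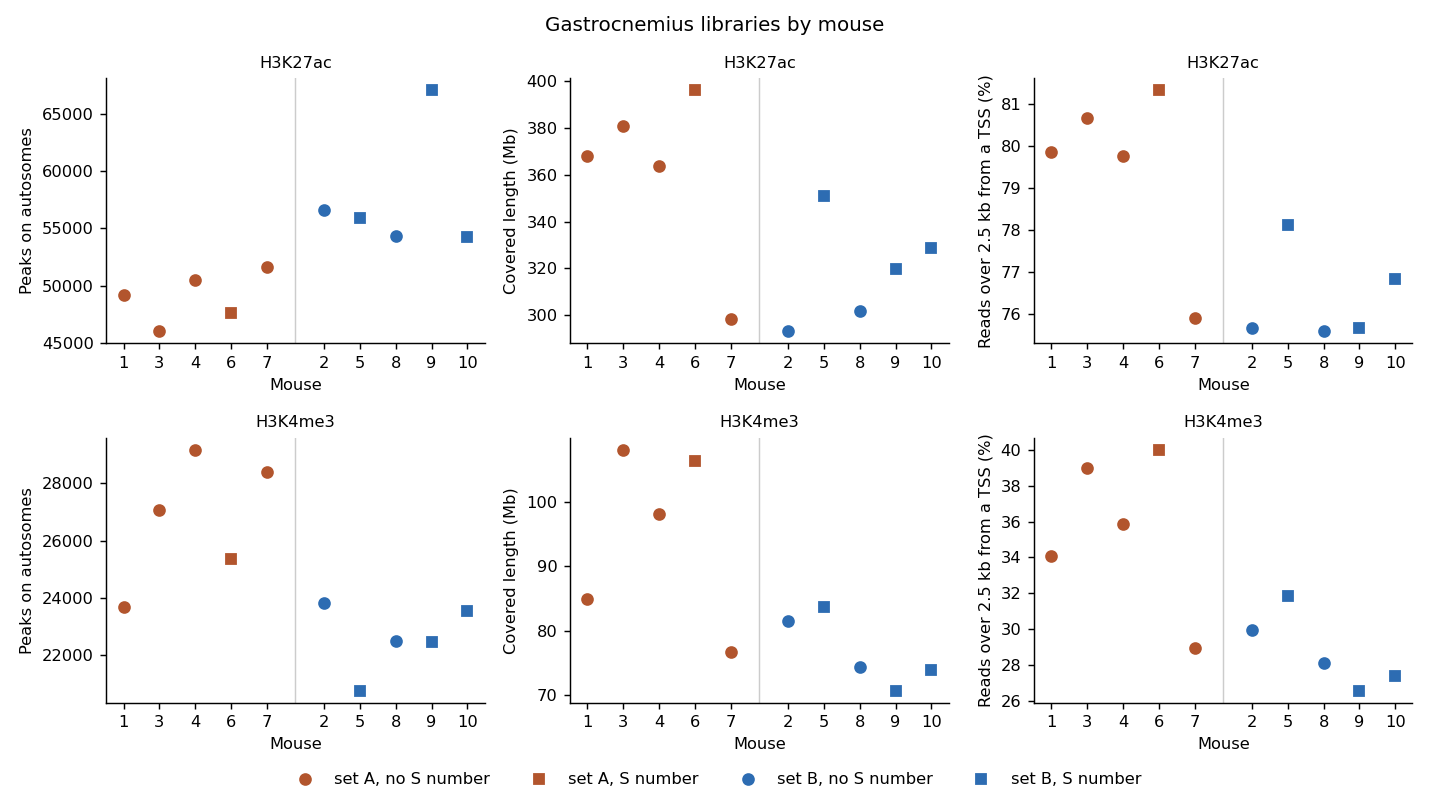
Autosomal peaks (number), covered length (Mb) and share of reads more than 2.5 kb from a TSS (%, vertical axes, which do not start at 0) in the 10 gastrocnemius libraries of each mark, each point 1 mouse, in red for set A and blue for set B, with squares for libraries with an S number. Set B has more H3K27ac peaks in every mouse (54233 to 67089 against 46028 to 51607), and 4 of the 5 set A mice, all except mouse 7, have the larger H3K4me3 read shares away from start sites.

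Promoter signal was measured as the reads within 2.5 kb of a gene's TSS per M reads in autosomal peaks (RPM), and a gene was called separated when all 5 libraries of a set lay above all 5 of the other. Of 15670 promoters past the filter for H3K27ac (a mean of at least 2 RPM), 1096 were higher in set B (6.99% of those compared) and 61 in set A (0.389%). For H3K4me3, 989 of 15270 were higher in B (6.48%) and 131 in A (0.858%). This excess for set B depended on the scaling. The median over all promoters was itself shifted towards B, by 0.20 (H3K27ac) and 0.13 (H3K4me3) on the log2(RPM + 1) scale, beside the larger share of set A reads away from start sites. With each library centred on its own median, 136 were higher in B and 300 in A for H3K27ac, and 187 and 570 for H3K4me3. With TMM factors, which set the typical promoter equal between libraries, the counts were 159 and 273, and 260 and 467. A promoter inside a wider peak also receives less of its reads by construction, as the reads of a peak were spread evenly over its length. In both marks at once, 115 of 14298 promoters were higher in B (0.804%), 3 were higher in A (0.021%) and 1 went opposite ways. Of the 94 promoters with RefSeq sequence among the 115, 74.5% hold a GC box, beside 66.2% of the 10728 promoters past the filter in both marks.

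The promoters with the largest smaller difference of the marks, all higher in set B, were those of Clmp, Abca8a, Gpnmb, Dlg5, Mir125a, Spaca6, A4galt, Ccdc149, Snrpd1 and Ccbe1. Clmp encodes an adhesion protein of cell junctions. In the order of mice used above, its H3K27ac signal was 5.42, 5.42, 4.03, 4.90 and 3.53 RPM in set A and 6.29, 10.4, 7.86, 8.58 and 8.46 RPM in set B, a log2 difference of 0.72 ± 0.14 (SE, n = 5 and 5). Its H3K4me3 signal was 14.3, 11.1, 9.91, 11.7 and 12.5 RPM in A and 16.4, 20.8, 19.5, 22.5 and 21.9 RPM in B. Mouse 2 was the lowest of set B in both marks. Abca8a, a lipid transporter of the ABC family whose promoter is printed above, had 5.89, 6.26, 6.37, 6.15 and 5.16 RPM of H3K27ac in A and 9.30, 9.87, 11.98, 9.95 and 11.1 RPM in B, a log2 difference of 0.71 ± 0.08 (SE). Its H3K4me3 signal was 12.1, 11.5, 10.6, 14.4 and 12.6 RPM in A and 16.1, 22.3, 19.4, 19.9 and 22.9 RPM in B. The 5 set A values lay closely together, and again mouse 2 was the lowest of B.

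Gpnmb encodes a transmembrane glycoprotein of macrophages and pigment cells. Its H3K27ac signal was low, at 0, 3.42, 2.79, 3.77 and 3.77 RPM in set A and 3.98, 4.30, 5.18, 7.10 and 5.18 RPM in set B. Its H3K4me3 signal was 4.87, 5.76, 6.59, 5.78 and 4.86 RPM in A and 7.86, 7.06, 8.35, 10.4 and 10.6 RPM in B. Dlg5, a scaffold protein of cell junctions, had far more H3K4me3, with 59.4, 57.0, 52.8, 50.3 and 62.1 RPM in A and 79.7, 79.6, 75.8, 89.8 and 80.8 RPM in B, a log2 difference of 0.52 ± 0.07 (SE). The sets were thus well apart at this promoter. A4galt, the enzyme that makes globotriaosylceramide, had H3K4me3 of 31.3, 35.9, 32.5, 27.6 and 34.8 RPM in A and 42.3, 51.0, 48.9, 46.2 and 44.1 RPM in B. Mir125a and Spaca6 lie on the same strand with overlapping promoter windows and count as 1 interval. In Mir125a the H3K4me3 difference was 0.49 ± 0.09 (SE, log2). Ccbe1, a secreted protein needed for lymphatic growth, was at 0 for H3K27ac in mouse 7 and at 3.55 to 4.83 RPM in the rest of set A, against 6.01 to 8.75 RPM in B. H3K27me3 at these 10 promoters overlapped between the sets or was at 0 in all libraries.

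The 3 promoters higher in set A in both marks were those of Aqp3, Gnb3 and Sp9, of which Aqp3 was weakly marked in both. Aqp3 encodes a channel for water and glycerol. Its H3K27ac signal was 5.37, 4.45, 3.49, 4.45 and 3.04 RPM in set A and listed at 0 in all 5 libraries of set B, and its H3K4me3 signal was 4.65, 3.99, 4.11, 4.99 and 3.93 RPM in A and 3.65, 0, 3.13, 3.17 and 0 RPM in B. A value of 0 means that no peak was called, so the Aqp3 difference is close to the limit of calling. Gnb3, a G protein subunit best known from cone photoreceptors, had H3K27ac of 13.7, 14.8, 12.3, 14.7 and 12.1 RPM in A and 7.83, 11.9, 9.95, 7.70 and 7.08 RPM in B. Its H3K4me3 was called in all 5 set A mice (3.89 to 6.99 RPM) and in set B in mouse 2 alone (3.65 RPM). Sp9, a transcription factor of the Sp family, had H3K4me3 of 26.5, 17.5, 19.5, 17.9 and 22.0 RPM in A and 13.4, 14.8, 15.9, 14.7 and 17.4 RPM in B, with mouse 10 just below the lowest set A mouse.

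**Figure D3:**
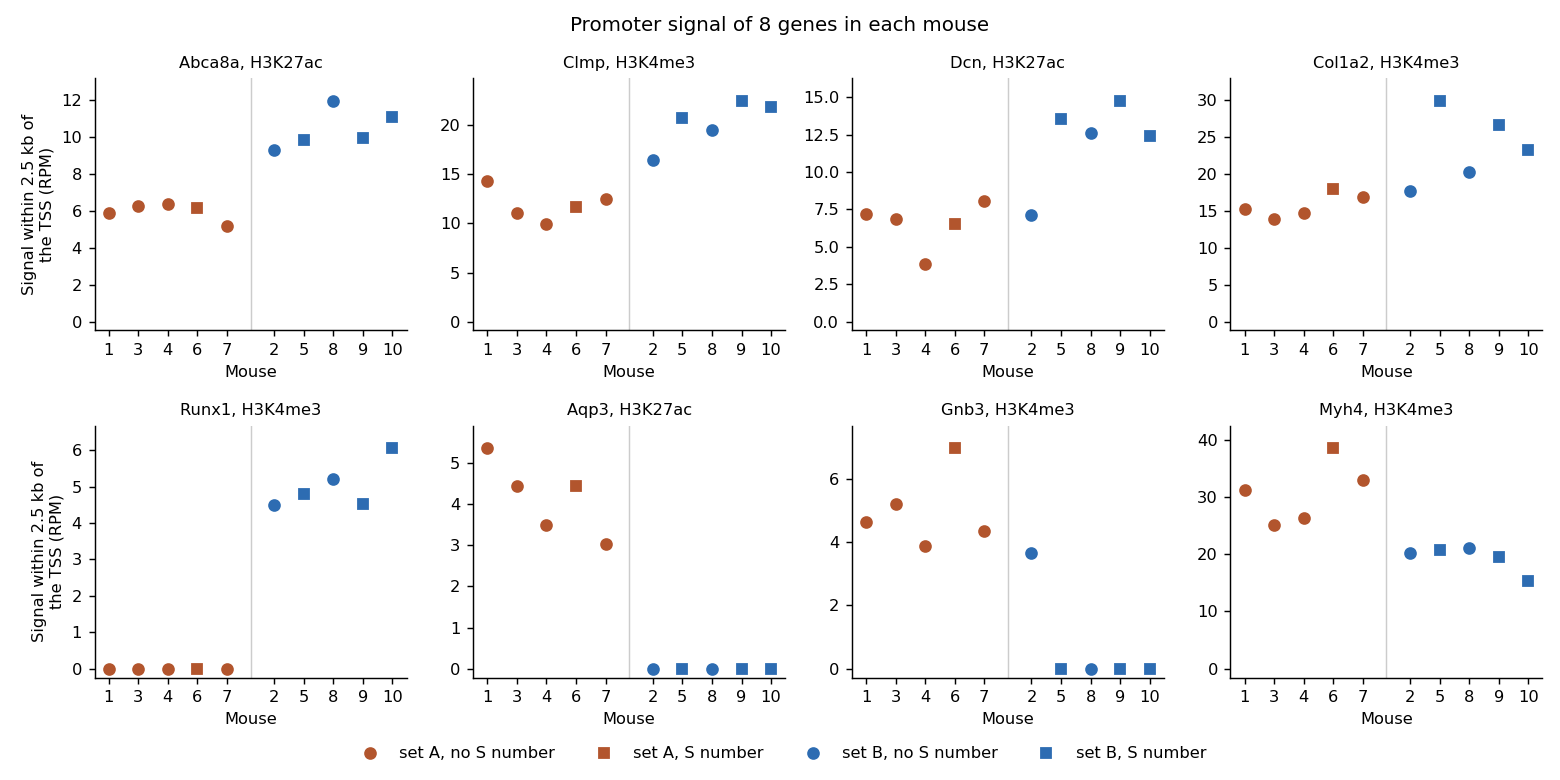
Promoter signal (vertical axes, RPM within 2.5 kb of the TSS) of 8 genes in each gastrocnemius library, each point 1 mouse of set A (red) or set B (blue), with squares for libraries with an S number. The sets do not overlap at Abca8a (5.16 to 6.37 against 9.30 to 11.98 RPM of H3K27ac), while mouse 2 lies among set A at Dcn (7.12 RPM of H3K27ac).

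Sites were also compared by the whole number of reads in each consensus interval, a measure that spreads no reads over a peak. Of 33568 H3K27ac sites, 781 were higher in set B (2.33%) and 504 in set A (1.5%), and of 24548 H3K4me3 sites, 1454 were higher in B (5.92%) and 1225 in A (4.99%). With TMM factors the counts were 915 and 450 for H3K27ac and 1180 and 1307 for H3K4me3, so that the larger direction turned for H3K4me3. The sites called on RPM differed by direction in where they lay, and those called with TMM factors were not located. Set A had the larger share of H3K4me3 reads away from start sites (mean 35.6% against 28.8%), and RPM does not correct for this. Of the H3K4me3 sites higher in B, 96.6% lay within 1 kb of a TSS and 99.9% were also called for H3K4me3 in a cortex library. Of those higher in A, 20.4% lay within 1 kb of a TSS and 50.9% were called in cortex, beside 50.1% and 72.4% of all sites. H3K27ac in all 10 libraries was present at 92.7% of the A-higher and 97.9% of the B-higher sites, beside 85.2% of all sites. H3K27ac sites higher in A were wide, with a median of 15 kb beside 7.4 kb for all sites, and 24.4% lay near a TSS against 63.5% of those higher in B. A GC box was present in the middle 200 bases of 26.3% of the B-higher and 7.59% of the A-higher H3K4me3 sites, beside 14.9% of all.

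The H3K4me3 sites named for the largest differences towards set A lay inside genes and away from start sites. The site inside Eepd1 (chr9:25509801-25523200, 28.2 kb from the nearest TSS), which encodes a DNA repair nuclease, had 20.6, 21.5, 16.2, 19.8 and 11.7 RPM in set A and no peak in set B. Sites inside Nadk (NAD kinase) and Mprip (a partner of myosin phosphatase) followed the same pattern, at 5.32 to 19.8 RPM and 5.15 to 18.1 RPM in A and no peak in B. A further site, overlapping Adad2 and Kcng4 (chr8:119616001-119627600), had 7.79 to 24.2 RPM in A and 4.77 RPM in mouse 2 of B. All 4 sites carried H3K27ac in all 10 libraries, and no cortex library had an H3K4me3 peak there. In total 119 H3K4me3 sites were called in all 5 set A libraries and in no set B library, and 1 in the reverse case. For H3K27ac these counts were 10 and 78.

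That 1 H3K4me3 site was at a start site of Runx1 (chr16:92823401-92826200), a transcription factor that rises in denervated muscle and acts in blood cells. It had 4.49, 5.17, 5.22, 4.53 and 6.07 RPM in set B and no peak in set A. A site inside Spi1 (chr2:91096201-91099800), which encodes the myeloid factor PU.1, had 5.12, 4.39, 4.84, 6.34 and 6.82 RPM in B and a peak of 3.89 RPM in mouse 4 of A. The other 3 named H3K4me3 sites higher in B lay in Nav2, Insc and Csmd1, the last 2 with a peak in 3 of the 5 set A libraries. For H3K27ac, the site inside Rasgef1c (chr11:49930201-49938800) had 8.41, 11.8, 5.0, 10.4 and 6.00 RPM in B and no peak in A, and the site inside Tg (chr15:66674601-66683600) had 4.81 to 12.6 RPM in B and none in A. In the other direction, a site inside Trdn (chr10:33113001-33128400), the gene of triadin at the calcium release units of muscle, had 8.11, 5.62, 5.32, 24.3 and 17.3 RPM in A and in B a peak in mouse 8 alone (3.75 RPM).

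Signal inside genes but outside every TSS window gave a further view, in a measure added after the promoter values had been seen. For H3K4me3, 434 of 8967 genes were higher in set A (4.84%) and 37 in set B (0.413%), with a median of -0.36 over all genes, and centring each library on its median left 61 and 104. For H3K27ac, 360 of 12245 were higher in A (2.94%) and 276 in B (2.25%), and centred 216 and 416. The genes named for body signal were chosen after their values were seen. Idh3a, a subunit of the citric acid cycle enzyme isocitrate dehydrogenase, showed both directions in the same mark. At its promoter, H3K4me3 was 59.7, 48.0, 47.3, 50.7 and 57.0 RPM in A and 84.1, 80.9, 73.8, 81.8 and 64.1 RPM in B. In its body it was 35.0, 42.2, 41.1, 53.5 and 43.5 RPM in A and 0, 0, 15.03, 0 and 15.7 RPM in B. Body H3K4me3 was higher in A also in Mb (myoglobin), 1 of 10 slow fibre genes past the filter, in Pax7 (the satellite cell factor), 1 of 7 satellite cell genes, and in the glycolytic genes Pfkm and Pkm, beside the 4.84% of all genes. Their log2 differences of -0.45, -0.41, -0.43 and -0.48 were close to the all-gene median. Pfkm had 198, 196, 195, 289 and 244 RPM in A and 176, 170, 151, 178 and 146 RPM in B. The values thus differed in opposite directions at the start and inside Idh3a. Both measures spread the reads of a peak evenly over its length, so where 1 peak spans both, the values are not independent. A body value of 0 means that no called peak reached there. The part of peak width was not tested.

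The 15 genes with the largest difference in body H3K27ac towards set B held matrix and mesenchymal genes beside others, such as Syde2 and Atp8b4, and 5 genes known only by a code. Col8a1, a short-chain collagen, had no body peak in set A and 5.68, 20.4, 4.17, 14.0 and 10.3 RPM in B. Adamtsl3, a matrix glycoprotein, had 1.48, 0, 0, 0 and 0.41 RPM in A and 2.95, 21.2, 13.0, 28.6 and 12.4 RPM in B, and Layn, a hyaluronan receptor, had none in A and 2.83, 6.04, 5.30, 5.86 and 5.88 RPM in B. In each of these the set A values were at or near 0. Twist2, a transcription factor of mesenchymal cells, had 0 to 4.35 RPM in A and 4.81, 16.8, 6.25, 19.3 and 14.6 RPM in B. For H3K4me3, Thbs2 (thrombospondin) and Olfml2b, which is found in the matrix, were among the 15 largest, and so was Serping1 (the C1 inhibitor). The other 12 included Ccdc86, Rhoh, Ddhd1, Adcy5, Otx2 and Ube2g1, which are not matrix genes. The largest log2 differences towards set A were at Cdip1 (-4.02) for H3K4me3 and Bdp1 (-3.65) for H3K27ac. Those towards B were at Olfml2b (3.02) and Adamtsl3 (3.42). Serping1 was at 0 to 3.89 RPM in A and 4.80 to 13.8 RPM in B. Mouse 2 was the lowest of set B at Adamtsl3, Layn and Twist2.

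Of 21 gene lists, that of fibroblasts and matrix was furthest above the median of all genes among lists with more than 7 members past the filter, with all libraries used. Its median promoter difference (B minus A, log2) lay 0.20 above that of all genes for H3K27ac, with 10 of 12 members above, and 0.26 above for H3K4me3, with 12 of 12 above. For body signal the values were 0.61 and 0.79, with 11 of 11 members past the filter above in both marks. Members higher in B throughout were Fbn1 and Ly6a (2 of 12) at the promoter in H3K27ac and none of 12 in H3K4me3, beside 6.99% and 6.48% of all promoters. The summed H3K27ac of the list ran from 95.2 to 110 RPM in set A and from 116 to 159 RPM in set B, and its H3K4me3 from 201 to 227 and from 218 to 300 RPM. Such sums include the shift of all promoters towards B (0.20 for H3K27ac). Summed H3K27ac was also apart for the smooth muscle and pericyte list (70.5 to 76.8 and 83.3 to 100 RPM). The same held for the tendon list (37.9 to 48.4 and 49.3 to 70.8 RPM). No member of the fibroblast and matrix list was at 0 in all libraries. Its rank did not hold in every subset. Without S number libraries its promoter H3K27ac value (0.09) lay below the heat shock (0.15) and the glucocorticoid and fasting list (0.13). Its body H3K27ac value (0.14) then lay below the immediate early (0.30) and circadian clock lists (0.28). Within males its promoter H3K27ac value (0.08) lay below the glucocorticoid and fasting list (0.19).

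**Figure D4:**
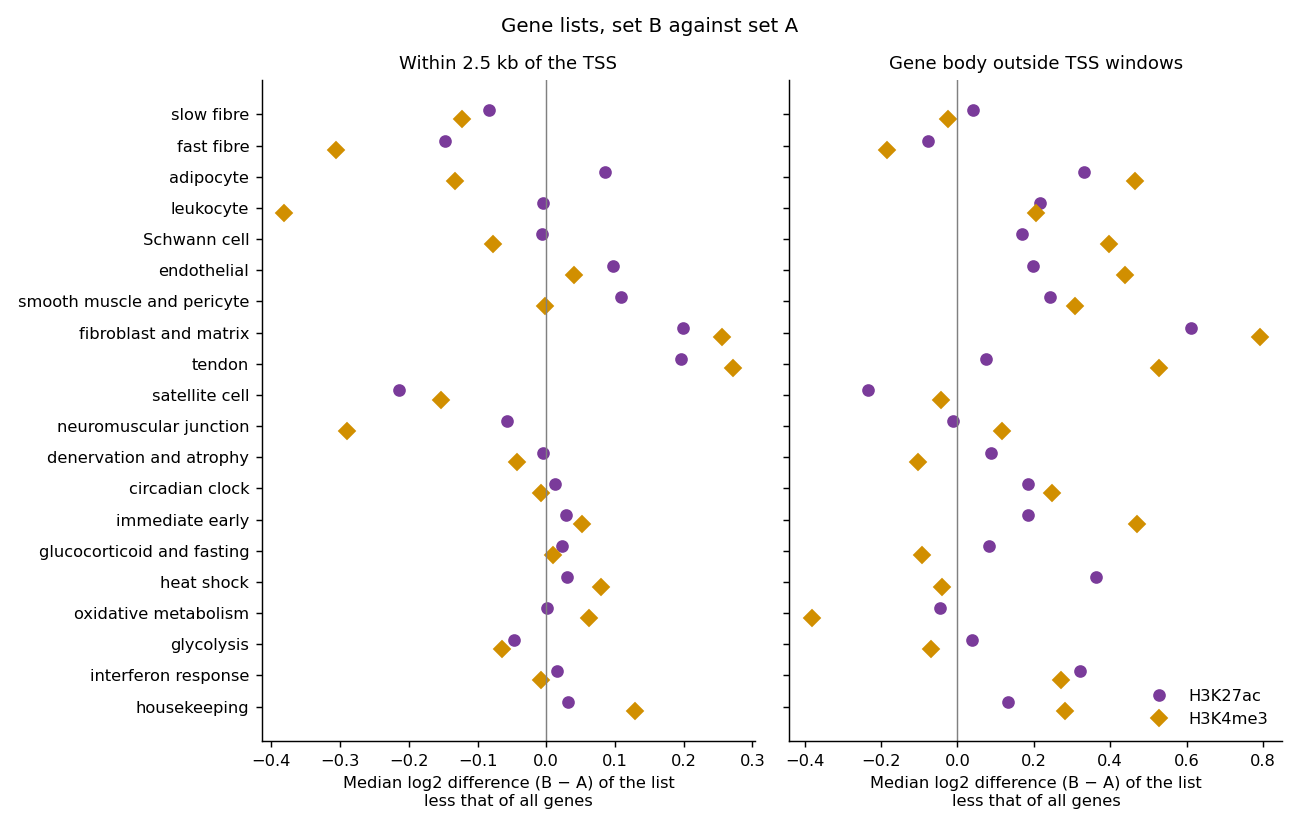
Median log2 difference (set B minus set A) of 20 gene lists less that of all genes past the filter (horizontal axes, log2), for signal within 2.5 kb of the TSS (left) and in the gene body (right), each circle (H3K27ac) or diamond (H3K4me3) 1 list. The fibroblast and matrix list lies to the right of 0 in all 4 cases (0.20, 0.26, 0.61 and 0.79) and the fast fibre list to the left (-0.15, -0.31, -0.08 and -0.18), though its H3K27ac values turned without S number libraries and its body values within males.

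At Dcn, Col1a2 and Lum the sets overlapped through a single mouse. Dcn, the collagen-binding proteoglycan decorin, had H3K27ac of 7.21, 6.88, 3.88, 6.51 and 8.05 RPM in set A and 7.12, 13.6, 12.6, 14.8 and 12.4 RPM in set B. Col1a2, a chain of type I collagen, had 4.44, 6.87, 3.38, 6.01 and 5.60 RPM in A and 4.56, 13.9, 10.2, 15.6 and 11.9 RPM in B. Lum, a proteoglycan of collagen fibrils, was at 0 in 4 set A mice and 3.37 RPM in mouse 6, and at 0, 6.14, 4.75, 5.67 and 4.98 RPM in B. In all 3 genes mouse 2 lay within set A, and mice 5, 8, 9 and 10 lay above every set A mouse. Fbn1, which encodes the microfibril protein fibrillin, did separate the sets, with 12.2, 9.81, 16.7, 11.4 and 14.1 RPM of H3K27ac in A and 18.3, 17.3, 20.2, 25.7 and 22.0 RPM in B. Fmod, a tendon proteoglycan, had no H3K4me3 peak at its promoter in set A or in mouse 2, and 10.2, 7.71, 10.5 and 9.17 RPM in mice 5, 8, 9 and 10.

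The level of the fibroblast and matrix list in each mouse (median over members of the log2 signal centred over mice, less that of all genes) was higher in most set B mice. For promoter H3K27ac it was -0.14, 0.02, -0.24, -0.03 and -0.25 in set A and -0.11, 0.24, 0.13, 0.17 and 0.20 in set B. For promoter H3K4me3 it was -0.16, -0.07, -0.29, 0.01 and -0.24 in A and -0.22, 0.30, 0.04, 0.18 and 0.21 in B. For body H3K27ac it was -0.22, 0.02, -0.17, -0.35 and -0.31 in A and -0.63, 0.77, 0.24, 0.35 and 0.42 in B. For body H3K4me3 the values were -0.86, -0.59, -0.35, -0.16 and -0.79 in A and -0.32, 0.77, 0.40, 1.07 and 0.79 in B. Mouse 2 stood among set A in 3 of these and below every set A mouse in body H3K27ac. Other lists had levels that did not overlap. For housekeeping promoter H3K4me3 they were -0.25 to -0.02 in A and 0.01 to 0.20 in B. Smooth muscle and pericyte body H3K27ac was at -0.22 to -0.12 in A and -0.08 to 0.24 in B. Oxidative metabolism body H3K4me3 was higher in A, at 0.22 to 0.49 against -0.24 to 0.14. Of the 4 mice with the highest level of the fibroblast and matrix list, 3 had an S number in the deposited name, and mouse 8 had none. Between libraries without an S number, this list lay 0.09 (H3K27ac) and 0.10 (H3K4me3) above all genes at promoters, and between libraries with one 0.26 and 0.24. Within males the promoter values were 0.08 and 0.23, and within females 0.28 and 0.29. Body values fell to 0.14 (H3K27ac) and 0.49 (H3K4me3) without S number libraries, and were 0.22 and 0.62 within males and larger within females (0.61 for H3K27ac). The part of the S number was not tested.

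**Figure D5:**
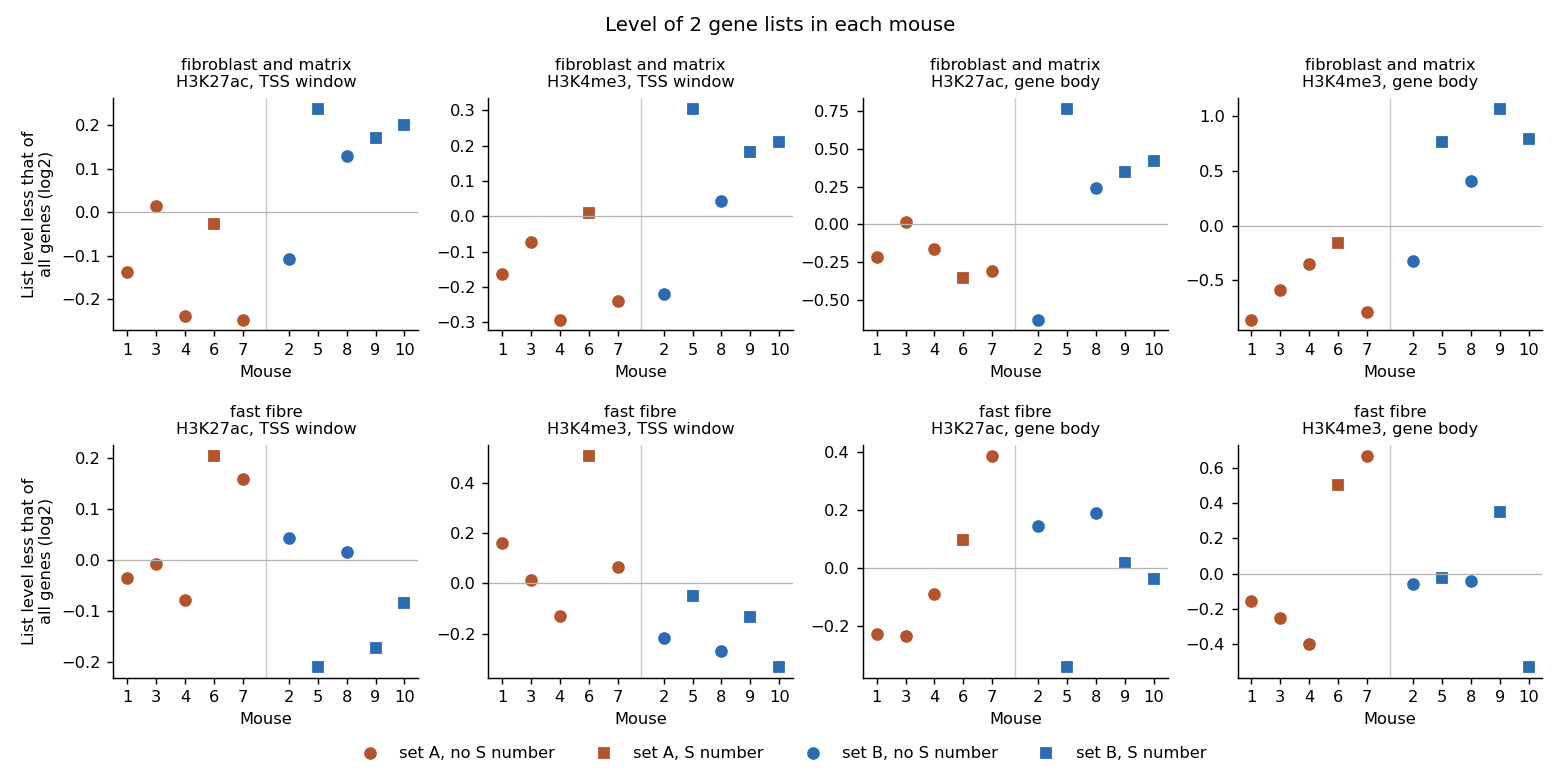
Level of the fibroblast and matrix list and of the fast fibre list in each mouse (vertical axes, log2 relative to all genes, centred over the 10 mice), for promoter and body signal of both marks, each point 1 mouse of set A (red) or set B (blue), with squares for libraries with an S number. At the fibroblast and matrix list, mice 5, 8, 9 and 10 lie above every set A mouse in all 4 panels, while mouse 2 lies among set A in 3 of them (-0.11 for promoter H3K27ac) and below it for body H3K27ac (-0.63).

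The fast fibre list lay below all genes at promoters. Its promoter median lay -0.15 from that of all genes for H3K27ac, with 2 of 14 members above, and -0.31 for H3K4me3, with 0 of 14 above. Myh4, the myosin of the fastest fibres, was its 1 separated member of 14 in H3K4me3 (beside 0.858% of all promoters), at 31.2, 25.1, 26.3, 38.6 and 32.9 RPM in set A and 20.2, 20.8, 21.0, 19.5 and 15.3 RPM in set B (log2 difference -0.64 ± 0.14 SE). Its H3K27ac overlapped, at 11.8 to 20.7 RPM in A and 11.6 to 19.5 RPM in B. The other myosins did not separate the sets: Myh2 H3K27ac was 8.75 to 13.1 RPM in A and 8.82 to 14.97 RPM in B, Myh1 was 10.7 to 16.3 and 9.90 to 14.99 RPM, and the slow myosin Myh7 was 0 to 8.48 and 0.73 to 8.69 RPM. Mouse 6 had the highest fast fibre level for promoter H3K4me3 (0.51, against -0.13 to 0.16 in the rest of set A and -0.33 to -0.05 in set B). Without the S number libraries the list lay 0.01 (H3K27ac) and -0.24 (H3K4me3) from all genes, and the H3K27ac value thus turned. Its body values turned as well, to 0.20 for H3K27ac without S number libraries and to 0.07 (H3K27ac) and 0.13 (H3K4me3) within males, and for body H3K27ac also without mouse 5 (0.02) or mouse 7 (0.03). The slow fibre list lay at -0.08 and -0.12, with Tnnt1, the slow troponin T, separated in H3K27ac (1 of 12, beside 6.99% of all promoters) at 7.65 to 10.5 RPM in A and 10.5 to 14.7 RPM in B. Its H3K4me3 value turned to 0.02 without mouse 1, 0.03 without mouse 7, 0.09 within males and 0.16 between S number libraries.

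Genes of the neuromuscular junction and of satellite cells also lay below all genes at promoters. None of the 10 junction genes past the filter lay above the all-gene median in H3K4me3 (list value -0.29), and 4 of 11 did in H3K27ac (-0.06). The H3K27ac value was 0.01 without mouse 5 and also without S number libraries. None of 9 satellite cell genes lay above it in H3K27ac (-0.21), and 1 of 9 did in H3K4me3 (-0.15, and -0.06 without mouse 10). Pax7 promoter H3K4me3 overlapped, at 13.1 to 18.5 RPM in A and 13.5 to 16.3 RPM in B. In these lists no promoter separated the sets. In body signal the junction list lay at -0.01 (H3K27ac) and 0.12 (H3K4me3, 4 of 7 members above), the latter at -0.72 without S number libraries. The satellite cell list lay at -0.23 and -0.04.

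The lists of fat, immune, nerve and vessel genes took different directions at promoters. The leukocyte list lay at -0.01 (H3K27ac) and -0.38 (H3K4me3), the latter with 0 of 4 members above the all-gene median. Its H3K27ac value was 0.31 within females and -0.12 within males. It was 0.21 without S number libraries and -0.13 between libraries with one. The H3K4me3 value rested on few members and was -0.17 without mouse 2 or mouse 6, -0.18 without mouse 4, -0.62 without mouse 7 and -0.07 within females. The list had 6 of 19 members past the filter in H3K27ac and 4 in H3K4me3, with 10 at 0 in every library of each mark, among them Ptprc, and its summed H3K27ac overlapped between the sets (69.2 to 89.2 RPM in A, 74.7 to 105 RPM in B). The adipocyte list had 5 members at 0 throughout in H3K27ac, among them Adipoq, and values of 0.09 (H3K27ac) and -0.13 (H3K4me3) relative to all genes. Neither direction was stable, since without mouse 5 the values were -0.12 and 0.09, and within males H3K27ac lay at -0.09. The Schwann cell list lay at -0.01 and -0.08, but at 0.15 and 0.04 within females. The endothelial list lay at 0.10 and 0.04, but at 0.01 and -0.12 within males, and without mouse 7 at 0.05 and -0.03. Of its members, 3 of 12 past the filter were higher in B in H3K27ac (beside 6.99% of all promoters), including Esam, an adhesion protein of vessels, at 17.6 to 19.9 RPM in A and 21.5 to 30.4 RPM in B, and the vascular factor Sox18, at 18.7 to 27.6 and 27.9 to 33.3 RPM. The summed endothelial H3K27ac, which includes the shift of all promoters towards B, was 176 to 211.7 RPM in A and 232 to 266 RPM in B. In body signal, the adipocyte, Schwann cell and endothelial lists lay above all genes in both marks (0.33 and 0.46, 0.17 and 0.40, and 0.20 and 0.44). So did the leukocyte (0.22 and 0.21), smooth muscle and pericyte (0.24 and 0.31) and tendon lists (0.07 and 0.53), and lists of no single cell type, namely the immediate early (0.19 and 0.47), circadian clock (0.18 and 0.25), interferon response (0.32 and 0.27) and housekeeping lists (0.13 and 0.28). Several of these body values turned. Within males they were 0.01 and -0.03 for the endothelial list and 0.00 and 0.29 for the Schwann cell list. The leukocyte list lay at -0.18 within females in H3K27ac and at -0.29 within males in H3K4me3. Without S number libraries, H3K4me3 lay at -0.02 for the leukocyte and -0.03 for the smooth muscle and pericyte list, and tendon H3K27ac lay at -0.02 without mouse 3. The smooth muscle and pericyte list lay at 0.11 and 0.00 at promoters and the tendon list, with 5 and 6 of 7 members past the filter, at 0.20 and 0.27. The smooth muscle and pericyte values were -0.06 (H3K27ac) between S number libraries and 0.27 (H3K4me3) within females. The tendon values were -0.04 and -0.01 without S number libraries, and H3K27ac lay at 0.02 within males. Of the 7 red blood cell genes, 1 passed the filter in each mark. The part of cell content in the separation of the sets was not tested.

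Lists linked to time of day and handling lay close to all genes at promoters when all libraries were used. The circadian clock list was at 0.01 (H3K27ac) and -0.01 (H3K4me3), the immediate early genes at 0.03 and 0.05, and the heat shock genes at 0.03 and 0.08. Between S number libraries, clock H3K27ac lay at -0.09, immediate early H3K4me3 at 0.21 and heat shock H3K4me3 at 0.18. Without S number libraries, heat shock H3K27ac lay at 0.15. In body signal the heat shock list lay at 0.36 (H3K27ac) and -0.04 (H3K4me3). Of the clock genes 1 of 18 was higher in B in each mark, and of the immediate early genes 2 of 19 in each, beside 6.99% (H3K27ac) and 6.48% (H3K4me3) of all promoters. Among these were the clock factor Arntl in H3K4me3 (57.9 to 74.7 RPM in A, 78.3 to 99.9 RPM in B), the clock gene Per2 in H3K27ac (16.1 to 20.2 and 21.3 to 23.3 RPM) and the early gene Jun in H3K27ac (28.9 to 42.2 and 42.4 to 60.1 RPM). The clock output gene Dbp (25.3 to 39.4 and 34.8 to 45.1 RPM) and Fos (17.3 to 29.2 and 17.6 to 37.8 RPM) overlapped in H3K27ac. The metabolic lists were also near all genes at promoters, oxidative metabolism at 0.00 and 0.06 and glycolysis at -0.05 and -0.06, whereas in body H3K4me3 oxidative metabolism lay at -0.38, with 2 of 11 members past the filter higher in A, and glycolysis at -0.07, with 3 of 11 (beside 4.84% of all genes). The oxidative value was -0.03 without S number libraries and 0.00 within males, against -0.66 within females. The denervation and atrophy list was at 0.00 and -0.04, with the Runx1 promoter in H3K4me3 its 1 separated member of 13 (beside 6.48% of all promoters). The housekeeping list was at 0.03 and 0.13, and its members Rpl13a, a ribosomal protein gene, Tbp, the TATA-binding protein gene, and Ppia (3 of 10 members) were higher in B in H3K4me3 (beside 6.48% of all promoters), the first at 54.0 to 83.5 and 86.4 to 110 RPM and Tbp at 88.0 to 107 and 115 to 131 RPM.

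Tests were possible on the libraries that had not chosen the sets. For H3K27me3 of the same muscles, the correlation was 0.683 within the sets and 0.678 between them, a gap of 0.00548 (exact one-sided permutation p = 0.103, adjusted p = 0.349 over 4 comparisons). In cortex, where set A has 5 mice and set B 4, the gap was 0.00508 for H3K27ac (exact permutation p = 0.175, adjusted 0.349), -0.000131 for H3K4me3 (exact permutation p = 0.437, adjusted 0.444) and -0.00118 for H3K27me3 (exact permutation p = 0.444, adjusted 0.444). The smallest p that the splits of the mice allow is 0.00794. Depth was uneven in these libraries. The cortex H3K27ac library of mouse 10 (set B) had 3.94 M reads in peaks, beside 14.4 to 21.2 M in the others. Its correlations were 0.822 to 0.865, and the mean within sets was 0.887 in A and 0.858 in B. Gastrocnemius H3K27me3 ran from 2.99 to 18.2 M. The part of depth in these tests was not tested. Peak number, covered genome and share of reads outside TSS windows, compared in the same 4 groups of libraries, gave no p below 0.317 (exact two-sided permutation over 12 comparisons, adjusted p of at least 0.905). Between the cortex libraries without an S number the gap was 0.0210 for H3K27ac, 0.00316 for H3K4me3 and 0.0280 for H3K27me3. These are given without a p, since so few libraries are left that their splits allow no p as small as the one above. With all mice, none of the 4 gaps passed the test at an adjusted p of 0.05.

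At single sites, edgeR's quasi-likelihood test called no site at a false discovery rate under 0.1 in any of the 4 (0.0% of the sites tested). The sites tested numbered 6946 for H3K27me3 of the gastrocnemius, and 16818, 25105 and 11725 for H3K4me3, H3K27ac and H3K27me3 of the cortex. Unadjusted p was under 0.05 at 330, 768, 1360 and 475 of these, or 4.75%, 4.57%, 5.42% and 4.05%. DESeq2 called 7, 3, 53 and 26 sites, and edgeR with the S number as covariate called 0, 52, 25 and 14, so that these counts depend on the model used. In simulated counts on the same sites, edgeR recovered 58, 96, 70 and 42 of 100 sites changed by 2-fold and 19, 82, 33 and 13 of 100 changed by 1.5-fold, with 3, 26, 6 and 6 calls among unchanged sites. H3K27me3 over the gastrocnemius promoters separated the sets at 13 genes higher in B (0.168%) and 33 higher in A (0.426%) of 7755.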

How the data were processed

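The authors aligned the reads to mm10 with bwa, filtered them with SAMtools (mapping quality, duplicates, autosomes and X), and ran epic2 on each library alone. The deposited count is the unnormalized number of reads in a peak, and the deposited score is epic2's, used here only in an alternative that leaves out low-scoring peaks. Cortex libraries were tied to mice by the animal code in the deposited names. Promoter signal shares a peak's reads evenly over its length within 2.5 kb of 1 RefSeq TSS per gene, per M reads in autosomal peaks, as log2(RPM + 1), with a mean of at least 2 RPM. Differences are set B minus set A with the standard error over mice. The members, the 21 gene lists and the tests were chosen with earlier results of these data known. Named promoters are those with non-overlapping sets in both marks, up to 10 in each direction, by the smaller log2 difference; named list members are the 4 with the largest mean difference and 12 fixed markers; named sites are the 5 per mark and direction. Others were named after their values were seen. Some genes and sites that the rule names are not reported here. Independent libraries were tested by exact permutation of the set labels and by edgeR (FDR under 0.1, TMM) at sites called in every library, and this was checked on simulated counts. Alternatives changed window, bins, scaling, filter, pseudocount, tool, covariate and libraries. Each mouse is 1 replicate. Software was Python 3.11.15, NumPy 2.4.6, SciPy 1.17.1, pandas 2.3.3, R 4.3.3, edgeR 4.0.16, limma 3.58.1 and DESeq2 1.42.0.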

Additional observations from a re-analysis of the deposited data

Results flagged for a closer look

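Of 92 groups of 5 values examined in the 2 marks, 10 had a mouse that stood apart from the other 4 by more than Dixon's limit, and chance alone gives about 1 in 20. Among library measures in set A, mouse 6 had the most H3K27ac reads per kb of peak (68.3), mouse 7 the lowest share of H3K27ac reads outside TSS windows (75.9%) and mouse 1 the fewest H3K4me3 reads in peaks (9.16 M). In set B, mouse 9 had the most H3K27ac peaks (67089) and mouse 5 the widest median H3K4me3 peak (3.4 kb). Among named promoters, H3K27ac was at 0 RPM at Gpnmb in mouse 1 and at Ccbe1 in mouse 7, both of set A. H3K27ac was lowest at Snrpd1, a core spliceosome gene, in mouse 6 of set A (6.31 RPM) and highest at A4galt in mouse 9 of set B (19.4 RPM). H3K4me3 at Gnb3 was called in set B in mouse 2 alone (3.65 RPM).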

How the results depend on the processing

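The sets were chosen from the correlations described, so no alternative is independent support. No paired analysis was possible because the sets share no replicate numbers. The cause of each change below was not tested. The H3K27ac gap stayed between 0.0153 and 0.0239, and the H3K4me3 gap between 0.00576 and 0.0153, with each mouse left out. With 50 kb bins these gaps were 0.00932 and 0.00674. The H3K4me3 gap was 0.0270 over covered bp and -0.00561 without S number libraries. For H3K27me3 of the gastrocnemius the gap was -0.00289 (exact permutation p = 0.667) without S number libraries, 0.000246 to 0.0123 with each mouse left out, and 0.0123 (exact permutation p = 0.0476) without mouse 1. Leaving out each mouse gave -0.00262 to 0.0146 (H3K27ac), -0.00158 to 0.00147 (H3K4me3) and -0.00944 to 0.00797 (H3K27me3) in cortex. There the H3K4me3 gap was 1.86e-05 with 50 kb bins, 0.00143 over covered bp and 0.00316 without S number libraries, and without them the H3K27me3 and H3K27ac gaps were 0.0280 and 0.0210. Promoters separated for B and A were 159 and 273 (H3K27ac) and 260 and 467 (H3K4me3) with TMM factors. Without S number libraries they were 3742 and 330, and 2732 and 481. Sets of fewer libraries overlap less often whatever their signal. Counts with libraries left out, here and below, therefore cannot be set beside those of all mice. A 1 kb window gave 20 higher in A for H3K27ac and 374 in B and 66 in A for H3K4me3, and a mean of at least 10 RPM gave 15 and 79 in A. Leaving out each mouse gave 1139 to 3288 in B and 78 to 124 in A for H3K27ac, and 1057 to 2273 and 150 to 279 for H3K4me3. Both maxima in B came without mouse 7. Centring changed body counts to 416 in B and 216 in A (H3K27ac) and 104 and 61 (H3K4me3). DESeq2 called 7 sites for H3K27me3 of the gastrocnemius and 3 (H3K4me3), 53 (H3K27ac) and 26 (H3K27me3) in cortex, and edgeR with the S number as covariate called 0, 52, 25 and 14. With each mouse left out, edgeR called 0 to 1 in the gastrocnemius and 0 to 1 for H3K27ac in cortex. The fibroblast and matrix list stayed above all genes with each mouse left out (promoters 0.15 to 0.25 for H3K27ac, 0.23 to 0.34 for H3K4me3).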

Other observations

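The interferon response genes lay close to all genes at promoters (0.02 for H3K27ac, -0.01 for H3K4me3), with 2 of 9 members past the filter higher in set B in H3K27ac (beside 6.99% of all promoters). These were Ifit1, an antiviral effector, at 9.93 to 12.3 RPM in A and 13.2 to 14.2 RPM in B, and Ifih1, a sensor of viral RNA, at 11.4 to 18.02 and 18.9 to 21.4 RPM. B2m, the light chain of class I major histocompatibility molecules, belongs to the housekeeping list and was at 13.2 to 20.4 and 22.7 to 34.5 RPM in H3K27ac. Of that list, 2 of 10 members were higher in B in H3K27ac (beside 6.99% of all promoters). In the glucocorticoid and fasting list (0.02 and 0.01), H3K4me3 was higher in B at 2 of 12 members (beside 6.48% of all promoters), at Klf9, at 80.7 to 90.4 and 93.8 to 107 RPM, and Zbtb16, at 51.9 to 60.7 and 61.7 to 114 RPM. Both are known targets of the glucocorticoid receptor.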
